A study of Rattus norvegicus with 12 samples.

Results

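The potassium channel genes of the rat were followed in hippocampal RNA of a pair of selectively bred lines. They were taken by symbol: every gene whose symbol starts with Kcn, followed by further letters and a number where there is one, with 1 auxiliary subunit gene left out by the rule. This gave 83 genes with 87 probes among the 22523 probes of an Illumina RatRef-12v1 BeadChip, an array of beads that each carry copies of 1 oligonucleotide. Both lines were bred for opposite locomotor responses to an unfamiliar place. There were 6 bred High Responders (bHR) and 6 bred Low Responders (bLR), all males of generation F15, killed at postnatal day 14 (P14). Each rat gave RNA of its whole hippocampus and 1 array, so the replicates were separate animals with n = 6 per line, and the number of arrays limits the precision. The lines differ by breeding, so a difference between them cannot be assigned to 1 gene or treatment.

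Potassium channels let potassium leave the cell and so set the resting potential, repolarise the action potential and limit repetitive firing. Voltage-gated channels open on depolarisation, inward rectifiers hold the membrane near rest, two-pore channels carry the background leak, and calcium-activated channels couple spikes to the afterpotential. Auxiliary subunits bind the pore-forming proteins and change their gating or their traffic to the membrane. In the hippocampus these families shape the firing of pyramidal cells, granule cells and interneurons, and in glia and blood vessels they buffer potassium and set vessel tone.

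All levels below are log2 signals after quantile normalisation of the 12 arrays, and all differences are bHR minus bLR on that scale. Markers of hippocampal neurons were present, with 8 of 8 measured genes above the median of all probes (6.66). Of 7 measured markers of the thalamus and habenula, 5 were higher and 2 lower in bHR, and limma called 0. Among them *Slc17a6* was the 1 with an unadjusted p under 0.05 (+0.33; limma unadjusted p = 0.0015, adjusted p = 0.353). With median centring of the arrays in place of quantile normalisation *Slc17a6* gave -0.0018, and with unscaled arrays -0.20. The part of these markers in the potassium channel values was not tested. Mean raw signal per array ran from 453 to 1038 units, and the dim end, 453 to 488 units, held 3 arrays of bHR rats (27, 29 and 39). Values from the 9 brighter arrays (3 bHR and 6 bLR) are given beside the main results. On those arrays *Slc17a6* gave +0.43 and *Prkcd*, of the same marker list, +0.54 (limma adjusted p = 0.323 and 0.325). There *Rora* and *Tcf7l2* of that list gave -0.18 and -0.07. Ttr, a choroid plexus transcript, read 7.98 in bHR 27 and 9.22 in bHR 41 against 13.4 to 15.3 in the other rats. In tissue RNA, fewer cells of a type and less RNA per cell cannot be told apart.

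No potassium channel gene passed the test between the lines. Of the 87 probes, limma called 0 at an adjusted p of 0.05, against 0.0888% of all probes, and the smallest adjusted p was 0.621 (*Kcnk13*, a two-pore channel). An unadjusted p under 0.05 was reached by 7 probes. Of these, 3 were higher in bHR (3.45% of the potassium channel probes, against 3.2% of all probes), namely *Kcna10*, *Kcnk10* and *Kcng1*. The other 4 were lower (4.6%, against 2.81% of all probes), namely *Kcnk13*, *Kcnma1*, *Kcnj14* and *Kcns2*. The ranges of the lines overlapped for every potassium channel probe, so 0 of 87 were separate, against 0.391% of all probes. The differences split into 40 higher and 47 lower in bHR. That split was 29 and 58 with median centring of the arrays in place of quantile normalisation, and 0 and 87 with unscaled arrays, on which all probes had a median difference of -0.22.

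The median absolute difference over the 87 probes was 0.0539. In units of the SD within a line, the difference was under 1 for 74 of the 87 probes (85.1%, against 86.6% of all probes). It was over 2 for 2 probes (2.3%, against 0.946% of all probes), *Kcna10* probe ILMN_2039515 (2.57) and *Kcnk13* (2.09). The other *Kcna10* probe, ILMN_2038994, was at 1.05. A difference under 0.1 was measured for 65 probes and one under 0.2 for 85 probes. The largest was +0.36, at *Kcng1*. The 95% interval of the difference lay within 0.25 on either side of 0 for 59 probes and within 0.5 for 86, the exception being *Kcng1*. A p above the threshold does not show equal levels, and these intervals bound the differences that the arrays leave possible. The median SD within a line was 0.128 for potassium channel probes and 0.112 for all probes, and 0.144 and 0.145 for those above the median signal.

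**Figure D1:**
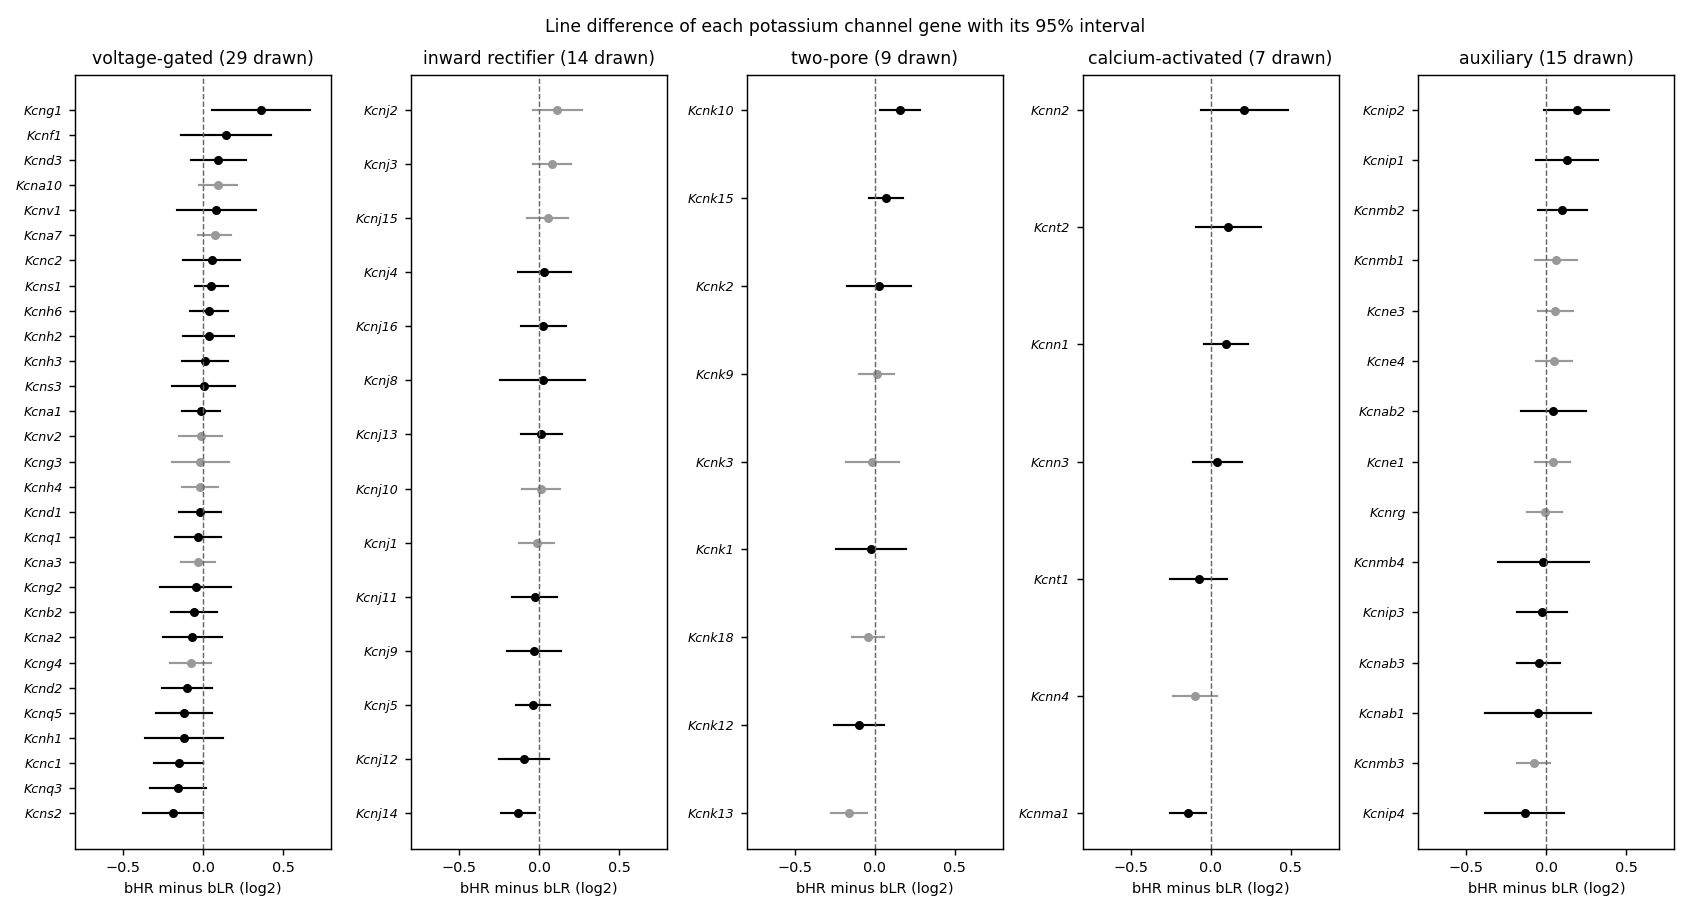
Each point is the bHR minus bLR difference of 1 potassium channel gene in log2 units (74 of the 83 genes), with bars for the limma 95% interval, in panels by subfamily and sorted by difference; grey marks genes with no line above the median signal of all probes, and a gene with several probes is shown by the probe of highest mean signal. Most intervals cross the dashed line at 0, and the *Kcng1* interval reaches the farthest from it (0.06 to 0.67).

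By gene, taking the probe of highest mean signal, 38 of the 83 were higher and 45 lower in bHR, with a median of -0.015 against +0.0017 for all probes. Of the 83 genes, 55 passed the median signal of all probes in a line or both. The median difference was -0.018 for the 38 voltage-gated genes and -0.014 for the 9 two-pore genes. It was +0.014 for the 14 inward rectifier genes, +0.043 for the 7 calcium-activated genes and +0.039 for the 15 auxiliary genes. With median centring these last 3 medians were -0.03, -0.05 and -0.06, against -0.017 for all probes. So no subfamily kept a higher direction under both scalings.

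Start regions of the genes are shown for the pair of lowest unadjusted p in each direction among genes that have an entry in a RefSeq promoter table (GRCr8 assembly), which covered 56 of the 83 genes. The choice was made after the values were seen, and *Kcnk10* and *Kcng1* are named only. Each sequence runs from 250 bases before to 50 bases after the annotated start, 5′ to 3′ on the gene's strand, and capitals mark matches to a GC box (GGGCGG) or a CCAAT box (CCAAT) on either strand. The *Kcnk13* and *Kcnma1* probes read lower in bHR, and the *Kcna10* and *Kcnip2* probes higher.
Kcnk13 (chr6:124971559-124971858, plus strand): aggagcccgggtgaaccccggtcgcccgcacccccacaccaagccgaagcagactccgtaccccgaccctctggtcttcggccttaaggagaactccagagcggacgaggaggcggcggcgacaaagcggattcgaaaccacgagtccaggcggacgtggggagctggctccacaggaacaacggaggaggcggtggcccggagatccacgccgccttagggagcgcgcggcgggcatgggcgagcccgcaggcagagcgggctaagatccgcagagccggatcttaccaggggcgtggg
Kcnma1 (chr15:351675-351974, plus strand): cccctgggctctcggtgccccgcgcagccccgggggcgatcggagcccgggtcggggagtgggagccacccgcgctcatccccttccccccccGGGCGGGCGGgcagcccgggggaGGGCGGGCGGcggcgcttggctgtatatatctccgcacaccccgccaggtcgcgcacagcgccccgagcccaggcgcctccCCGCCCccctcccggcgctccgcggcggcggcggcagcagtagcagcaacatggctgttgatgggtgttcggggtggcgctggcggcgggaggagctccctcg
Kcna10 (chr2:197474464-197474763, plus strand): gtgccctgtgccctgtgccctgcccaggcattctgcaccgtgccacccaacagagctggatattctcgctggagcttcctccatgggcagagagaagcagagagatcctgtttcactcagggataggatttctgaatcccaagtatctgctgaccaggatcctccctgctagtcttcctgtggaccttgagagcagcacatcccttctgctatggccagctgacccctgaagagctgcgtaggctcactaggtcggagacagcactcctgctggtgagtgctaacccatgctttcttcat
Kcnip2 (chr1:254613849-254614148, minus strand): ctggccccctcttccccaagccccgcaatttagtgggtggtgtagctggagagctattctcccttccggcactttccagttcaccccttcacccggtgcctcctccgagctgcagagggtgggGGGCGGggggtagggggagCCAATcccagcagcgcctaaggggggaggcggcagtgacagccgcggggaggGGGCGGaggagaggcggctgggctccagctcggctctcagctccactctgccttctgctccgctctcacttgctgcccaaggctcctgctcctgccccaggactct

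These 4 start regions differ in makeup. *Kcnma1* has a G and C content of 78.33% with 5 GC boxes, some of them overlapping, and 38 CG dinucleotides. *Kcnip2* (67.67%) has 2 GC boxes and 1 CCAAT box. *Kcnk13* (69.0%) has 33 CG dinucleotides and no match to the motifs searched, and *Kcna10* (56.0%) has 4 CG dinucleotides and no match. Over the 56 potassium channel promoters the median G and C content was 60.5%, against 52.33% for all 27457 promoters of the table. A GC box was present in 48.2% of them against 34.9%, a CCAAT box in 26.8% against 37.7%, and a TATA box (TATAAA) in 3.57% against 14.3%. The cyclic AMP response element (TGACGTCA) matched 0 of the 56 and 1.91% of all promoters, and its shorter form TGACG, which lies within it, matched 23.2% and 22.0%. Genes with a signal above the median in a line had a median G and C content of 62.0% (34 promoters), the others 58.0% (22 promoters). A match describes letters only, and no binding was measured.

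Among voltage-gated genes, the electrically silent subunits held 2 of the 3 genes that had a probe with an unadjusted p under 0.05, the other being *Kcna10*. These subunits form no channel alone but join Kv2 subunits and change their gating. *Kcng1* read 10.19, 10.66 and 10.90 (lowest, median and highest rat) in bHR and 9.92, 10.20 and 10.73 in bLR. Rats bHR 41 and bLR 42 each lay well inside the range of the other line, so the lines overlapped although 5 of 6 bHR rats were above the bLR median. The means were 10.60 ± 0.26 (SD, n = 6) and 10.24 ± 0.32. The difference was +0.36 ± 0.14 (SE), or 1.29-fold, with a limma unadjusted p of 0.0233 and adjusted p of 0.767 (exact permutation p = 0.0541). It was +0.27 on the 9 brighter arrays (limma unadjusted p = 0.15), +0.05 with median centring and -0.15 without scaling. When each rat was left out in turn, 8 of 12 fits kept an unadjusted p under 0.05, and those without bLR 26, bLR 28, bLR 30 or bHR 39 did not.

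*Kcns2*, a silent subunit of another subgroup, read 6.79, 7.02 and 7.20 in bHR and 7.03, 7.13 and 7.48 in bLR. The lines overlapped, with 3 bHR rats below every bLR rat and 2 bLR rats (30 and 46) above every bHR rat. The difference was -0.19 ± 0.09 (SE; limma unadjusted p = 0.0467, adjusted p = 0.828; exact permutation p = 0.0823). It was -0.26 on the 9 brighter arrays, and 5 of 12 fits without 1 rat kept an unadjusted p under 0.05. The remaining silent subunits gave +0.14 for *Kcnf1*, +0.08 for *Kcnv1*, +0.05 for *Kcns1*, +0.00 for *Kcns3*, -0.02 for *Kcng3*, -0.02 for *Kcnv2*, -0.05 for *Kcng2* and -0.08 for *Kcng4*, with limma adjusted p of at least 0.898. On the 9 brighter arrays *Kcnf1* gave +0.02 and *Kcnv1* -0.04. In all, 5 of the 10 silent subunit genes were higher and 5 lower in bHR. Of their usual partners in the Kv2 family, which carry the delayed rectifier of the soma and proximal dendrites, *Kcnb2* gave -0.06 ± 0.07.

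The Kv7 genes encode the subunits of the M-current, which muscarinic receptors close and which holds neurons back from bursting, and *Kcnq1*, best known from heart and epithelia. *Kcnq3* read 6.30, 6.59 and 6.81 in bHR and 6.61, 6.72 and 6.93 in bLR. Here 4 bHR rats lay below every bLR rat, while bHR 27 was higher than 5 of the 6 bLR rats. Its difference was -0.16 ± 0.08 (limma unadjusted p = 0.0698, adjusted p = 0.828), and -0.21 on the 9 brighter arrays (limma unadjusted p = 0.047).

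*Kcnq5* was read by a pair of probes. Probe ILMN_1375368 read 10.46, 10.74 and 11.07 in bHR and 10.80, 10.85 and 10.96 in bLR. The bHR rats spread on both sides of the bLR rats, with 4 below all of them and bHR 27 above all of them. The difference was -0.12 ± 0.08 (limma adjusted p = 0.884), and -0.22 ± 0.07 on the 9 brighter arrays (limma unadjusted p = 0.0112, adjusted p = 0.736). Probe ILMN_1370238 gave -0.06 ± 0.08. *Kcnq1* gave -0.03 ± 0.07. The mean signals of *Kcnq1* (6.67) and *Kcnq3* (6.65) lay near the median of all probes (6.66).

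Kv3 channels repolarise fast-spiking interneurons within a spike. *Kcnc1* read 8.63, 8.78 and 8.91 in bHR and 8.79, 8.92 and 9.14 in bLR. Each line held 3 rats beyond the range of the other, low in bHR and high in bLR. The difference was -0.15 ± 0.07 (limma unadjusted p = 0.0512, adjusted p = 0.828). The 3 probes of *Kcnc2* disagreed in sign, at +0.05 ± 0.08, -0.12 ± 0.08 and +0.04 ± 0.06.

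Kv4 channels carry the A-type current of pyramidal cell dendrites, which damps signals travelling back from the soma. *Kcnd2*, the main dendritic subunit of hippocampal pyramidal cells, read 12.07, 12.16 and 12.40 in bHR and 12.11, 12.26 and 12.53 in bLR. The lines overlapped over most of their range, with a difference of -0.10 ± 0.07 (limma adjusted p = 0.885; 95% interval -0.26 to 0.05). *Kcnd3*, expressed in interneurons, gave +0.09 ± 0.08 (-0.03 on the 9 brighter arrays) and *Kcnd1* -0.02 ± 0.06.

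Kv1 subunits sit in axons and terminals and set the threshold of firing. *Kcna10*, a subunit known mainly from outside the brain, had a pair of probes, neither above the median signal of all probes in either line. Probe ILMN_2039515 read 6.51, 6.60 and 6.63 in bHR and 6.40, 6.46 and 6.54 in bLR. Here 5 bHR rats lay above every bLR rat, and bLR 46 was higher than bHR 33. The difference was +0.13 ± 0.04 (limma unadjusted p = 0.0105, adjusted p = 0.680; exact permutation p = 0.00433), it was +0.10 on the 9 brighter arrays, and it was -0.05 without scaling. Probe ILMN_2038994 gave +0.09 ± 0.06 (limma unadjusted p = 0.118). The axonal subunits gave -0.01 ± 0.06 for *Kcna1* and -0.07 ± 0.09 for *Kcna2*. Their mean signals (6.67 and 6.75) lay near the median of all probes (6.66), so small differences do not show equal transcript levels. The remaining Kv1 genes lay between -0.03 (*Kcna3*) and +0.07 (*Kcna7*). Members of the Kv10 to Kv12 families, slow channels of the EAG, ERG and ELK type, lay between -0.12 ± 0.11 (*Kcnh1*) and +0.04 ± 0.06 (*Kcnh6*), with *Kcnh3* at +0.01 ± 0.07 and *Kcnh2* at +0.03 ± 0.07.

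**Figure D2:**
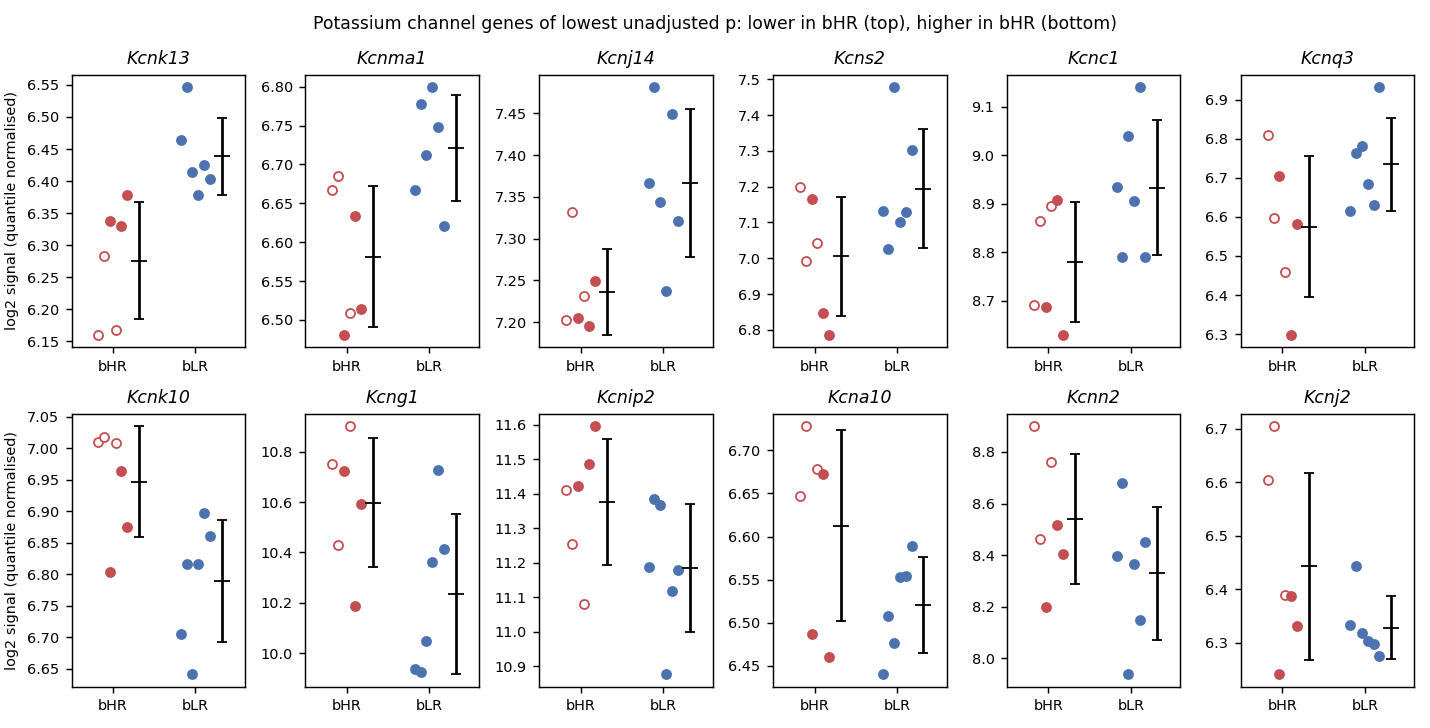
Log2 normalised signal of each rat for the 6 genes of lowest unadjusted p that were lower in bHR (top) and the 6 that were higher (bottom), by the probe of highest mean signal, with red for bHR, blue for bLR and open circles for the 3 dim arrays; bars are the mean ± SD (n = 6) and each panel has its own axis. The lines overlap in every panel, and for *Kcnk10* the 3 open circles are the highest values (7.01, 7.02 and 7.01).

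Among two-pore channels, *Kcnk13* read lower and *Kcnk10* higher in bHR, both at an unadjusted p under 0.05. *Kcnk13*, a THIK channel that sets the resting potential of microglia in mouse, read 6.16, 6.31 and 6.38 in bHR and 6.38, 6.42 and 6.55 in bLR. Of the bHR rats, 5 were below every bLR rat and bHR 47 reached the lowest of them. The means were 6.28 ± 0.09 (SD, n = 6) and 6.44 ± 0.06, both under the median signal of all probes. The difference was -0.16 ± 0.05 (SE), or 1.12-fold higher in bLR, with a limma unadjusted p of 0.00699 and adjusted p of 0.621 (exact permutation p = 0.00433, where 0.00216 is the smallest these 12 rats allow). It kept an unadjusted p under 0.05 whichever rat was left out (12 of 12 fits), and was -0.09 on the 9 brighter arrays (limma unadjusted p = 0.13). Among 6 measured microglia markers 5 were lower in bHR over the 12 arrays with a median of -0.077, and 0 had an unadjusted p under 0.05. On the 9 brighter arrays *Aif1*, *C1qa* and *Tmem119* gave -0.03, -0.06 and -0.06. There *C1qb*, *Cx3cr1* and *P2ry12* gave +0.04, +0.04 and +0.01. The mean of these markers ran from 8.72 to 9.15 over bHR rats and from 9.04 to 9.13 over bLR rats, and their part in the *Kcnk13* value was not tested.

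*Kcnk10*, a TREK channel gated by membrane stretch, lipids and heat, read 6.80, 6.99 and 7.02 in bHR and 6.64, 6.82 and 6.90 in bLR. Here 4 bHR rats lay above every bLR rat, and the 3 dim arrays were the 3 highest. The difference was +0.16 ± 0.06 (limma unadjusted p = 0.0150, adjusted p = 0.729; exact permutation p = 0.0195). On the 9 brighter arrays it was +0.09 (limma unadjusted p = 0.20), and without scaling it was -0.09. The other TREK gene measured, *Kcnk2*, gave +0.03 ± 0.09, and *Kcnk12*, the relative of *Kcnk13*, gave -0.10 ± 0.07.

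*Kcnk1*, a TWIK channel of neurons and astrocytes, read 11.15, 11.74 and 11.84 in bHR and 11.52, 11.68 and 11.83 in bLR. Rat bHR 47 was lowest by a wide gap, and the other bHR rats overlapped the bLR rats. The difference was -0.03 ± 0.10, +0.08 without that rat and -0.16 on the 9 brighter arrays. In the TASK group, the acid-sensitive leak channels *Kcnk9* and *Kcnk3* gave +0.01 and -0.01, and *Kcnk15* gave +0.07. *Kcnk18* gave -0.04, and all of these had a limma adjusted p of at least 0.887.

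Inward rectifiers were led by *Kcnj14*, a strongly rectifying channel of the Kir2 group. It read 7.20, 7.22 and 7.33 in bHR and 7.24, 7.36 and 7.48 in bLR. In each line 4 rats lay beyond the range of the other, low in bHR and high in bLR. The difference was -0.13 ± 0.05 (limma unadjusted p = 0.0198, adjusted p = 0.750; exact permutation p = 0.0152). It was -0.15 on the 9 brighter arrays, and 11 of 12 fits without 1 rat kept an unadjusted p under 0.05, the exception being the fit without bLR 28. The other Kir2 genes gave +0.11 ± 0.07 for *Kcnj2*, +0.03 ± 0.08 for *Kcnj4* and -0.09 ± 0.07 for *Kcnj12*. On the 9 brighter arrays these were -0.01, -0.11 and +0.04, so each turned its sign.

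Channels opened by G proteins, the effectors of inhibitory receptors such as those for GABA, adenosine and serotonin, gave +0.08 ± 0.06 for *Kcnj3*, -0.04 ± 0.05 for *Kcnj5* and -0.03 ± 0.08 for *Kcnj9*. The ATP-sensitive pore of neurons, *Kcnj11*, gave -0.03 ± 0.07, and its sulfonylurea receptors *Abcc8* and *Abcc9* gave +0.05 ± 0.05 and -0.03 ± 0.06. Renal *Kcnj1* and *Kcnj15* gave -0.01 ± 0.05 and +0.05 ± 0.06. The mean signals of *Kcnj1* (6.15), *Kcnj15* (6.42) and *Kcnj3* (6.41) were below the median of all probes (6.66).

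Several inward rectifiers mark cells other than neurons. *Kcnj10* and *Kcnj16*, which astrocytes use to take up potassium, gave differences of +0.01 ± 0.06 and +0.03 ± 0.06. Their means in bHR and bLR were 6.64 and 6.63 for *Kcnj10*, and 6.72 and 6.69 for *Kcnj16*. *Kcnj13*, a channel of the choroid plexus, stayed between 6.66 and 6.99 in all 12 rats, including the 2 rats with little Ttr. Its mean (6.83), like those of *Kcnj10* and *Kcnj16*, lay near the median of all probes (6.66), so an even reading does not show equal transcript levels. *Kcnj8*, the ATP-sensitive pore of pericytes and smooth muscle, read 6.66, 7.10 and 7.55 in bHR and 6.83, 7.07 and 7.26 in bLR. The bHR rats enclosed the bLR range, with bHR 41 the highest and bHR 39 the lowest. The difference was +0.02 ± 0.12, and +0.25 on the 9 brighter arrays (limma unadjusted p = 0.034, adjusted p = 0.840). Of 5 measured markers of endothelium and pericytes, 2 were higher and 3 lower in bHR over the 12 arrays, with a median of -0.0053, and 1 had an unadjusted p under 0.05. On the 9 brighter arrays *Vtn* and *Anpep* gave +0.15 and +0.11, and *Flt1*, *Cldn5* and *Rgs5* gave -0.01, -0.09 and -0.23. The mean of these 5 markers ran from 8.51 to 8.68 over bHR rats and from 8.59 to 8.77 over bLR rats. Their part in the *Kcnj8* value was not tested.

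Calcium-activated channels end bursts and set the interval between spikes. *Kcnma1*, the pore of the large-conductance BK channel, which repolarises the spike when calcium enters, read 6.48, 6.57 and 6.68 in bHR and 6.62, 6.73 and 6.80 in bLR. The lines overlapped between 6.62 and 6.68, with 3 bHR rats below every bLR rat and 4 bLR rats above every bHR rat. The means were 6.58 ± 0.09 (SD, n = 6) and 6.72 ± 0.07, just below and just above the median signal of all probes (6.66). The difference was -0.14 ± 0.05 (SE; limma unadjusted p = 0.0184, adjusted p = 0.736; exact permutation p = 0.0216). It was -0.18 on the 9 brighter arrays (limma unadjusted p = 0.012, adjusted p = 0.736), and 12 of 12 fits without 1 rat kept an unadjusted p under 0.05. The BK beta subunits, which tune its calcium sensitivity and inactivation, gave +0.10 ± 0.07 for *Kcnmb2*, +0.06 ± 0.06 for *Kcnmb1*, -0.02 ± 0.13 for the neuronal *Kcnmb4* and -0.08 ± 0.05 for *Kcnmb3*. On the 9 brighter arrays *Kcnmb4* gave -0.25 (limma unadjusted p = 0.087).

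The small-conductance SK channels carry the medium afterhyperpolarisation. *Kcnn2*, the SK gene of CA1 pyramidal cells, read 8.20, 8.49 and 8.90 in bHR and 7.94, 8.38 and 8.68 in bLR. The lines overlapped widely, with dim arrays bHR 27 and bHR 39 as the highest values. The difference was +0.21 ± 0.13 (limma adjusted p = 0.865; 95% interval -0.06 to 0.48), and +0.04 on the 9 brighter arrays. *Kcnn1* gave +0.10 ± 0.06, *Kcnn3* +0.04 ± 0.07 and the intermediate-conductance *Kcnn4* -0.10 ± 0.06, and the median of these 4 genes, +0.07, was -0.04 with median centring and -0.24 without scaling. Sodium-activated channels gave -0.07 ± 0.08 for *Kcnt1* and +0.11 ± 0.10 for *Kcnt2* (-0.00 on the 9 brighter arrays).

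Of the auxiliary subunits, none had an unadjusted p under 0.05. *Kcnip2*, a calcium-binding KChIP that carries Kv4 channels to the membrane, read 11.08, 11.42 and 11.60 in bHR and 10.88, 11.18 and 11.38 in bLR. Of the bHR rats, 4 lay above every bLR rat, and dim array bHR 39 was the lowest of its line. The difference was +0.19 ± 0.10, or 1.14-fold (limma unadjusted p = 0.0659, adjusted p = 0.828). On the 9 brighter arrays it was +0.32 ± 0.10 (limma unadjusted p = 0.0081, adjusted p = 0.666), whereas it was -0.14 with median centring and -0.34 without scaling.

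The other KChIP genes did not move as 1 group. *Kcnip4* read 8.15, 8.37 and 8.90 in bHR and 8.38, 8.51 and 8.80 in bLR. Rat bHR 27 was the highest of all 12 and 3 other bHR rats were the lowest. The difference was -0.14 ± 0.12, and -0.26 on the 9 brighter arrays (limma unadjusted p = 0.034, adjusted p = 0.840). *Kcnip1* gave +0.13 ± 0.09 and *Kcnip3*, which also acts as a calcium-dependent transcriptional repressor, -0.03 ± 0.07. The Kv beta subunits, which speed the inactivation of Kv1 channels, gave -0.05 ± 0.15 for *Kcnab1*, +0.04 ± 0.09 for *Kcnab2* and -0.05 ± 0.06 for *Kcnab3*. The MinK-related *Kcne1*, *Kcne3* and *Kcne4* gave +0.04, +0.06 and +0.05, all at or below the median of all probes and all below 0 without scaling, and *Kcnrg*, a soluble protein that suppresses Kv channels, gave -0.01.

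On the 9 brighter arrays limma again called 0 of the 87 probes (0.0755% of all probes). There 9 of the 87 had an unadjusted p under 0.05 (10.3%, against 5.72% of all probes), 3 higher and 6 lower in bHR. The 3 higher were *Kcnip2*, *Kcnj8* and *Kcnj3* (+0.12), and the 6 lower were *Kcnma1*, *Kcnj14*, *Kcns2*, *Kcnq5*, *Kcnq3* and *Kcnip4*. Of these, 3 were among the 7 of the full set, namely *Kcnma1*, *Kcnj14* and *Kcns2*. The 9 brighter arrays are part of the full set, so this overlap is not an independent test of these genes. No matching overlap over all probes is given here, so the count of 3 has no background to be read against.

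**Figure D3:**
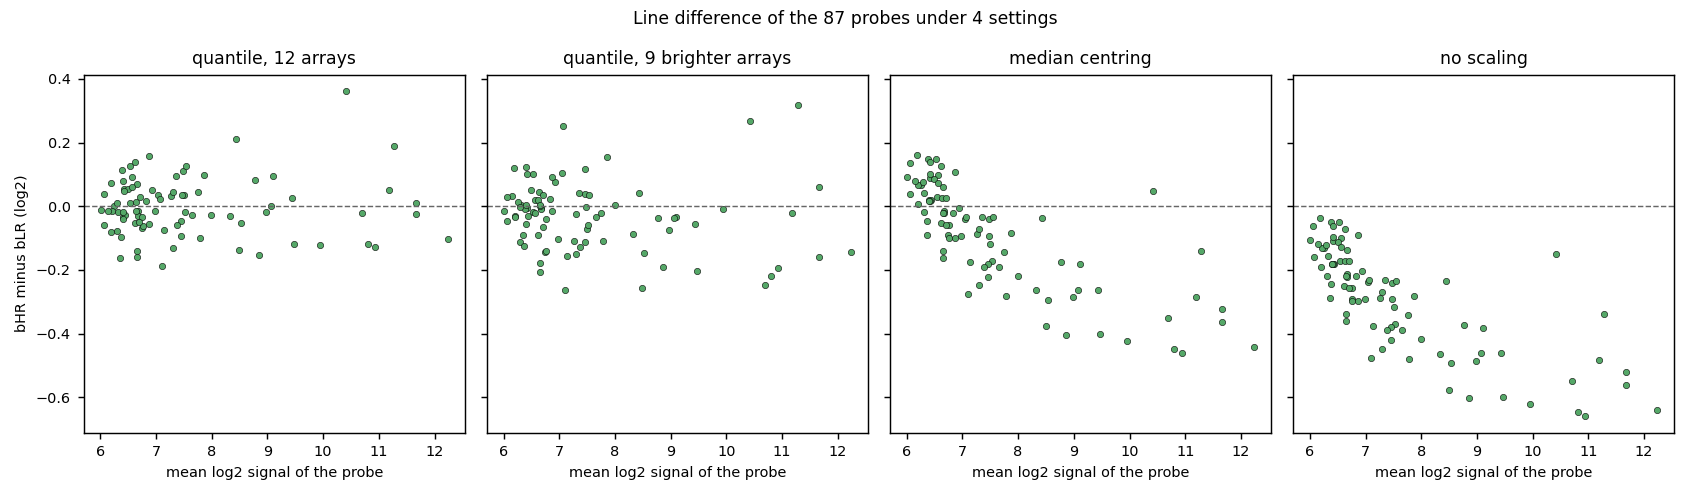
Difference between the lines (bHR minus bLR, log2) of the 87 probes against their mean log2 signal, in panels for quantile normalisation of 12 arrays, the 9 brighter arrays, median centring and no scaling; each point is 1 probe. Probes split 40 higher and 47 lower in the first panel, 31 and 56 in the second, 29 and 58 in the third and 0 and 87 in the last, where brighter probes lie farther below 0.

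Rats also varied within the lines. The widest range over the 12 rats was 0.976 at *Kcng1* (1.97-fold), followed by 0.962 at *Kcnn2*, 0.883 at *Kcnj8*, 0.877 at *Kcnmb4*, 0.821 at *Kcnab1* and 0.814 at *Kcnv1*. Among the 55 genes above the median signal, bHR 47 was the lowest of the 12 rats in 14 (25.5%), while it was lowest at 12.5% of the 11490 probes that passed the median signal in a line or both. Rat bHR 27 was the highest in 12 genes (21.8%, against 23.2% of those probes) and the lowest in 2 (3.64%, against 18.8%). Rats bHR 29 and bLR 30 were each the highest in 9 genes (16.4%, against 5.87% and 8.58% of those probes). The mean of the 55 genes ran from 8.07 in bHR 47 to 8.25 in bHR 27, so the bHR rats spanned the whole range and the bLR rats, from 8.13 to 8.19, lay inside it.

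**Figure D4:**
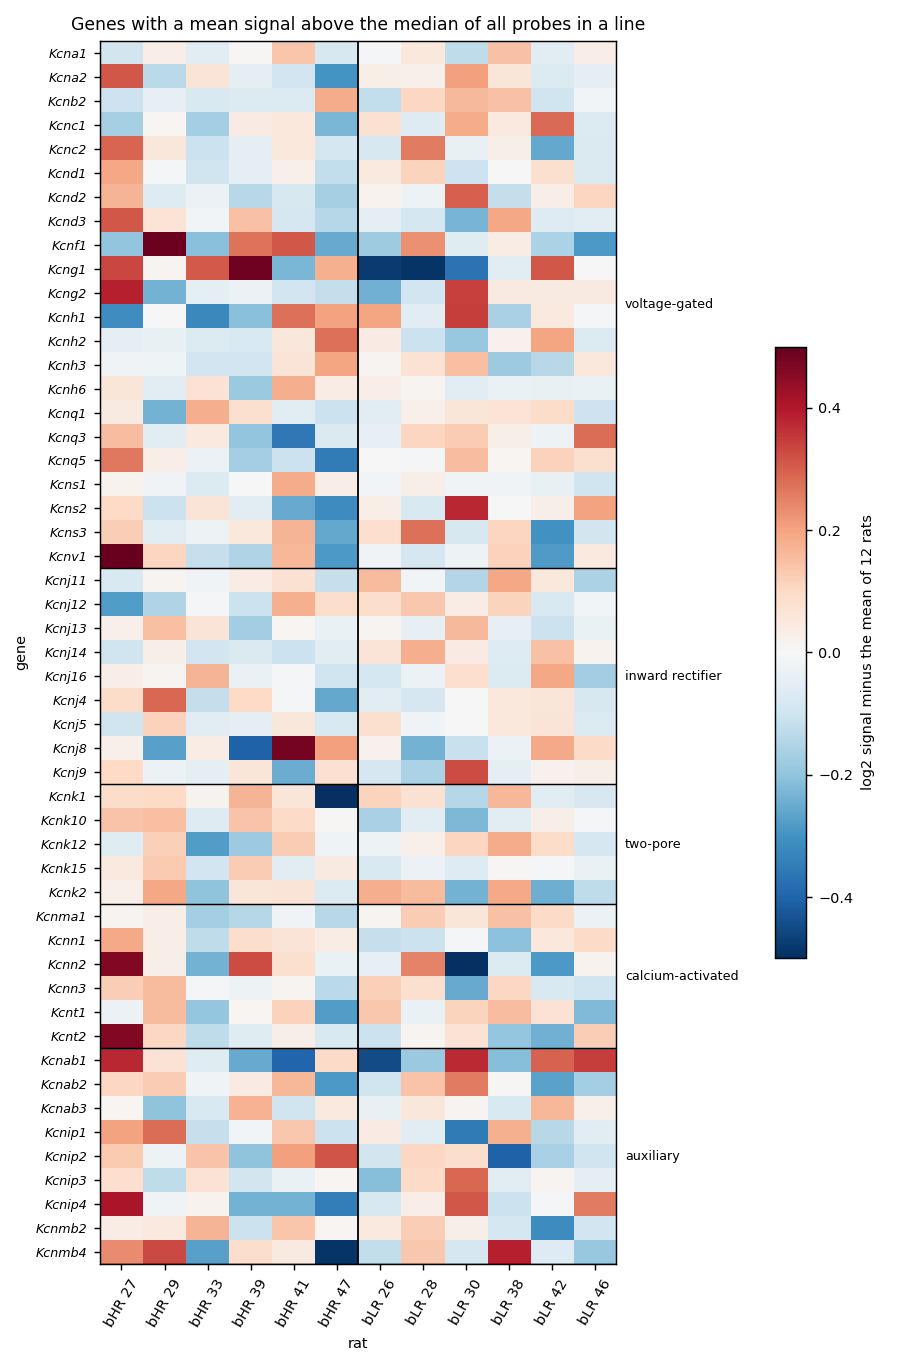
Log2 signal of each rat minus the mean of the 12 rats for 51 of the 55 potassium channel genes above the median of all probes in a line, by subfamily (horizontal lines) and with bHR left of the vertical line; colours end at 0.5 on either side. No block of one colour fills either line, and single squares such as *Kcnk1* in bHR 47 and *Kcnv1* in bHR 27 carry the deepest shades.

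Genes taken as partners or regulators of these channels were read as a list of 44, of which 36 were measured and 32 were above the median signal. Of the 36, limma called 0, with 18 higher and 18 lower in bHR and a median of +0.0006. The list holds *Nrsn1* (-0.22 ± 0.12), whose link to potassium channels is uncertain, and without it 18 genes were higher and 17 lower, with a median of +0.0053. *Lgi4*, a secreted protein of the LGI family, was the 1 member with an unadjusted p under 0.05, with means of 9.46 and 9.68 for bHR and bLR (-0.22 ± 0.08; limma adjusted p = 0.709). The Kv4 partners *Dpp6* and *Dpp10* gave +0.02 ± 0.15 and +0.04 ± 0.10. The calmodulin genes *Calm2* and *Calm3*, whose product opens SK channels and binds Kv7 channels, gave +0.05 ± 0.07 and +0.01 ± 0.09. *Akap5*, the anchor of kinases at Kv7 channels, gave +0.15 ± 0.23.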

How the data were processed

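Total RNA of 12 rats was read on 12 arrays, 1 per rat, and rats were grouped by bred line from the labels. The authors deposited the average bead signal of each probe, a linear intensity that is not normalised between arrays; it was extracted with limma 3.28.21, per the submitters' processing notes. They also deposited log2 values after quantile normalisation with preprocessCore 1.34.0. The sources used here do not state whether background was subtracted. No detection p-values were used.

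The intensities were taken to log2 and quantile normalised over all 22523 probes and 12 arrays, which matched the authors' log2 values of the potassium channel probes to within 0.0056. In R 4.3.3, limma 3.58.1 (lmFit, eBayes) was fitted to every probe with line as the only factor. Tests were two-sided, with Benjamini-Hochberg adjustment over the whole table and a threshold of 0.05. Single probes also had an exact permutation test over the 924 assignments of 6 of 12 rats. The fit was also run on simulated data with independent noise at each probe and planted differences. Those data held no dim arrays, so that run does not bear on array brightness. Rat numbers are not shared between lines, so no pairing was used.

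Named genes were the 10 of lowest unadjusted p in each direction, those with a rat set apart from its line or with several probes, channels of non-neuronal cells, and up to 5 more per subfamily by mean signal. Other members are given by value or range. The values of a few named genes are not reported here. The members, lists and rules were chosen with earlier results of these data known, so they are described by counts and medians without a test of the list. Sequences are from RefSeq (GRCr8), taking the first listed start of a gene, and other settings tried were scaling, background correction, filters, variance models, brightness and leaving out each rat.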

Additional observations from a re-analysis of the deposited data

Results flagged for a closer look

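Among 174 sets of 6 values, the rats of 1 line at 1 probe, 7 held a rat far from the rest of its line by Dixon's gap test at its 95% limit. About 1 such set in 20 arises by chance. Rat bHR 47 read 7.06 for *Kcnb2*, a Kv2 subunit, against 6.77 to 6.83 in the other bHR rats, and 7.32 for *Kcnh2*, an ERG channel, against 6.97 to 7.10. The same rat read 11.15 for *Kcnk1* against 11.68 to 11.84, and without it the difference between the lines turned from -0.03 to +0.08. Rat bHR 27 read 7.84 for the silent subunit *Kcng2* against 7.22 to 7.43, and 6.43 for *Kcnn4* against 6.27 to 6.32. Rat bHR 29 read 6.57 for *Kcnh4* against 6.32 to 6.40, and bLR 28 read 6.44 for *Kcnj2* against 6.28 to 6.33. Without the rat concerned, the differences were -0.10 for *Kcnb2*, -0.02 for *Kcnh2*, -0.13 for *Kcng2*, -0.12 for *Kcnn4*, -0.05 for *Kcnh4* and +0.14 for *Kcnj2*.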

How the results depend on the processing

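Limma called 0 potassium channel probes at an adjusted p of 0.05 in every alternative run. With unscaled arrays the smallest limma adjusted p of a potassium channel probe was 0.092, so 0.10 was passed there. In the main fit limma called 0 at an adjusted p of 0.10 and counted 7 at an unadjusted p of 0.05. That last count was 22 with median centring (24.3% of all probes there), 49 without scaling (43.8%), 3 when only probes above the median entered the fit (5.62%), and 5 (without bLR 26; 5.14%) to 11 (without bHR 27, 6.21%, and without bHR 33, 6.92%) when 1 rat was left out. With median centring all probes had a median difference of -0.0173. The medians there were -0.0516 for all potassium channel genes, -0.0920 for voltage-gated, -0.0272 for inward rectifier and -0.0591 for auxiliary genes. With unscaled arrays (all probes -0.216) they were -0.250 for all, -0.291 for voltage-gated, -0.226 for inward rectifier, -0.219 for two-pore, -0.244 for calcium-activated and -0.258 for auxiliary genes. The auxiliary median was also -0.0208 for probes above the median, -0.0163 on the 9 brighter arrays and with brightness as a block, and -0.0142 with mean raw signal as a covariate, and the inward rectifier median was -0.0273 for probes above the median. The calcium-activated median (+0.0430) was -0.0454 with median centring, -0.0207 on the 9 brighter arrays and with brightness as a block, -0.0194 with mean raw signal as a covariate and -0.0032 without bLR 30. The two-pore median (-0.0145) was +0.0262 for probes above the median and +0.0020 to +0.0151 without bLR 26, bHR 33, bLR 38 or bHR 47. The inward rectifier median (+0.0137) was -0.0091 to -0.0008 without bLR 28, bHR 29, bHR 33, bLR 46 or bHR 47, and that of all potassium channel genes (-0.0150) was +0.0003 without bLR 38. Without scaling the differences reversed for *Kcna10* (-0.0504), *Kcng1* (-0.150) and *Kcnk10* (-0.0920). Of 57 named probes, 20 changed sign with median centring, 27 without scaling, 13 with each setting for brightness, 1 to 9 when 1 rat was left out, and 0 to 3 otherwise. The causes were not tested. No paired analysis was possible because rat numbers are not shared between the lines. Dim arrays hold bHR rats only, so brightness and line can be told apart only through the 9 brighter arrays.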

Other observations

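Some potassium channel genes stand on the array under older symbols that the selection by name does not reach. A table of current names (GRCr8) matched LOC364241 to *Kcnk5* and RGD1565025 to *Kcnk7*, both two-pore channels. Their differences were -0.04 for *Kcnk5* (limma adjusted p = 0.951) and +0.01 for *Kcnk7* (limma adjusted p = 0.988).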
